A study of Mus musculus with 17 samples.

Results

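Blmh encodes bleomycin hydrolase, the enzyme that inactivates bleomycin, the drug used in this study to induce skin fibrosis. The gene was taken by name, with its Ensembl ID ENSMUSG00000020840, and is 1 of the 30406 genes that all count matrices share. It was followed in all 17 single-cell RNA-Seq libraries, 8 from skin and 9 from kidney. All mice were 8 weeks old and carried PDGFRb-Cre, which is on from development, together with the Z/EG reporter, which turns green (GFP) once Cre has acted, and GFP+ cells labelled PDGFRb+GFP+ were sorted. SARAWT mice were the controls for the transgene, and SARATg mice also carried a Cre-dependent human ZFYVE9 cDNA behind the CAG promoter at Rosa26, which makes the protein SARA. In skin, SARAWT and SARATg mice received subcutaneous PBS or bleomycin at 20 mg/kg, by the labels 3 times a week for 2 weeks (the study's methods describe daily injections). By those methods, skin was harvested 1 week after the bleomycin injections ended. The skin groups were SARAWT PBS with 3 libraries, SARAWT bleomycin with 3, SARATg PBS with 1 and SARATg bleomycin with 1. In kidney, mice received vehicle or intraperitoneal aristolochic acid at 5 mg/kg, 3 times a week for 3 weeks. The kidney groups were SARAWT vehicle with 3 libraries, SARAWT aristolochic acid with 3, SARATg vehicle with 2 and SARATg aristolochic acid with 1. PDGFRb-Cre is also active in leukocytes, so the sorted cells were not pericytes alone. The labels do not say whether the libraries of a group came from separate animals, so p-values measure the spread between libraries, which may be technical.

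Bleomycin hydrolase is a cytosolic cysteine aminopeptidase of the papain family. It removes the amide group of the bleomycin molecule that the drug needs for binding metal and cutting DNA, and low activity of the enzyme in skin and lung is the textbook reason for the drug's toxicity there. Its normal work includes trimming peptides in the cytosol, breaking down citrullinated filaggrin into free amino acids in the upper epidermis, and hydrolysing homocysteine thiolactone.

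In GRCm38 (GENCODE mouse release M21) Blmh lies on the + strand of chromosome 11, from 76924809 to 76987379. The annotation gives it 9 transcripts, 5 of them protein-coding. The main transcript, Blmh-201, runs from 76945504 to 76987379 with 12 exons. Its 3′ UTR, where 3′ libraries place most reads, lies in exon 12 from 76986625 to 76987379. The snRNA gene Gm22611 overlaps Blmh on the same strand, from 76974086 to 76974235. The next gene downstream, Slc6a4, starts 11224 bp away on the same strand.

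Libraries held 3355217 to 69765525 unique molecular identifiers (UMIs, each a captured RNA molecule) in skin and 28660151 to 137093834 in kidney. After filtering, 781 to 6548 cells per skin library and 4808 to 11773 per kidney library remained, with median depths of 1269 to 11282 and 4024 to 8931 UMIs per cell. SARAWT PBS 2 was the smallest and shallowest library. Of its kept cells, 59.8% carried a barcode also found in another skin library, against 25.2% in bleomycin 2, 19.6% in bleomycin 1, 7.58% in PBS 1 and under 1% in the others. A Pdgfrb UMI was found in 3.08 to 19.6% of skin cells but only 0.170 to 1.18% of kidney cells, whereas Ptprc, which encodes the leukocyte antigen CD45, was found in 36.0 to 76.5% and 11.6 to 81.1%. Signal from the SARA gene went against some labels. Mouse-aligned Zfyve9 was at 621 counts per 1000000 UMIs (CPM) in the library labelled skin SARAWT PBS 3, above the SARATg libraries at 224 and 314, and at 7.75 to 26.0 in the other skin SARAWT libraries. The 4 skin libraries counted against the longer of the 2 gene lists (SARAWT PBS 1 and 2, bleomycin 1 and 2) included human ZFYVE9, at 843 per 1000000 UMIs in the library labelled SARAWT PBS 1 and at 87.8 to 188 in the other 3. In kidney, Zfyve9 was at 167 CPM in the library labelled SARAWT aristolochic acid 1 and at 20.7 in that labelled SARATg aristolochic acid 1, against 91.7 and 93.4 in SARATg vehicle. Group names below follow the labels, and the treatment fits over all cells and in fibroblasts, dendritic cells and proximal tubule are given with and without the SARAWT libraries named here. The comparisons between cell types used all libraries, and the interaction with genotype was not rerun without them.

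Blmh was lower in all 3 SARAWT bleomycin libraries than in all 3 SARAWT PBS libraries. Over all kept cells it stood at 48.3 CPM (1616 UMIs) in PBS 1, 38.5 (126 UMIs) in PBS 2 and 40.4 (1996 UMIs) in PBS 3. After bleomycin it stood at 30.1 (699 UMIs), 31.1 (675 UMIs) and 31.8 CPM (1882 UMIs). The values of the groups did not overlap. PBS 2, with the fewest UMIs, had an exact Poisson 95% interval of 32.1 to 45.9 CPM. It lay above the bleomycin values but overlapped the intervals of all 3 bleomycin libraries, among them bleomycin 1 (27.9 to 32.4) and bleomycin 2 (28.8 to 33.5). Such intervals cover counting error only. The SARATg pair did not differ in this way, with 41.4 CPM in PBS (2317 UMIs) and 41.9 CPM in bleomycin (2890 UMIs), both within the range of the SARAWT PBS libraries.

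**Figure D1:**
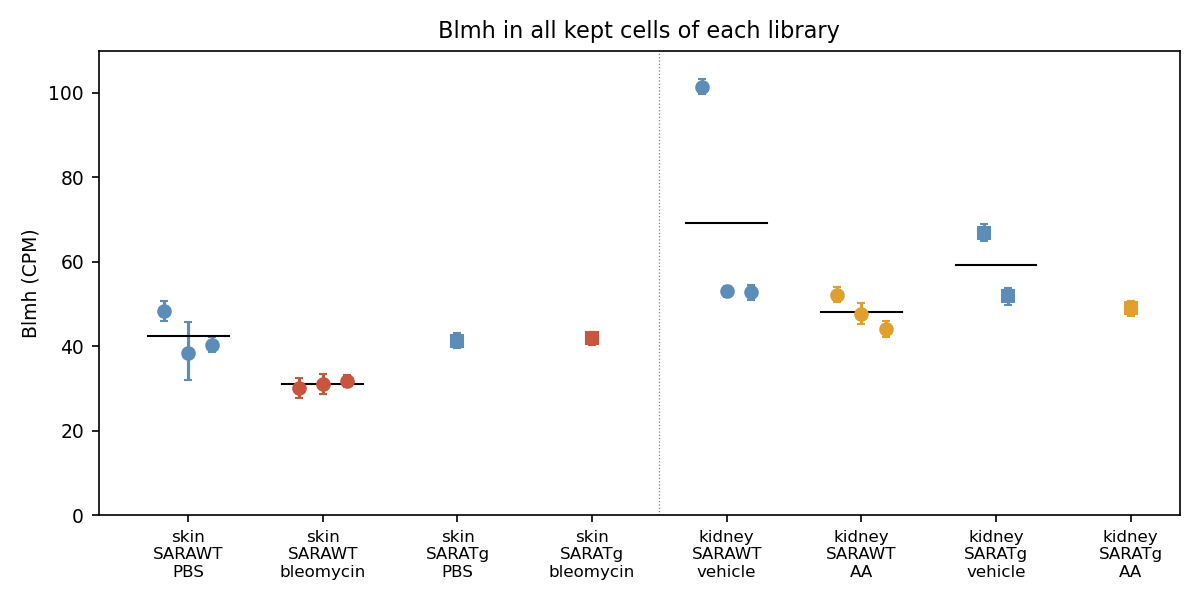
Blmh level in CPM (vertical axis) over all kept cells of each of the 17 libraries, by group (horizontal axis; AA, aristolochic acid). Circles are SARAWT and squares SARATg libraries, vertical bars are exact Poisson 95% intervals and horizontal lines group means. The 3 SARAWT bleomycin libraries sit between 30.1 and 31.8 CPM, below every other skin library.

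The SARAWT means were 42.4 CPM ± 5.19 (SD, n = 3) with PBS and 31.0 CPM ± 0.849 (SD, n = 3) with bleomycin. The difference of 11.4 CPM had a two-sided exact permutation p = 0.1, the smallest that 3 against 3 libraries allow, and an adjusted p of 0.167 over 10 comparisons of this kind. In edgeR's quasi-likelihood test across all genes, the log2 fold change was -0.31 (SE 0.14) and the Benjamini-Hochberg adjusted p was 0.312. The change did not pass the threshold of 0.05. In that fit 0 of 15335 genes passed (0.0%), while 2799 were under an unadjusted p of 0.05, DESeq2 called 1319, edgeR with the replicate number as a block called 585, and edgeR with the gene list as a covariate called 830. Blmh was not among the calls of any of these, with a log2 fold change of -0.31 and an edgeR adjusted p of 0.252 under the block and 0.183 with the covariate, and a DESeq2 adjusted p of 0.434.

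Without the library labelled PBS 1 the edgeR log2 fold change was -0.26 (adjusted p = 0.584), and without PBS 3 it was -0.29 (adjusted p = 0.296). Without PBS 3 the count of genes that passed rose from 0 to 960 of 15466, still without Blmh, while without any other single library it was 0 to 4. With both left out, so that the shallow PBS 2 stood alone against 3 bleomycin libraries and was assumed to vary like them, it was -0.15 (adjusted p = 0.759). The difference in CPM was -8.48 without PBS 1 and -12.4 without PBS 3, each with an exact permutation p of 0.2, the smallest that 2 against 3 libraries allow.

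The share of cells with a Blmh UMI depends on depth and has to be compared at one depth. Unthinned, 24.7, 12.9 and 27.2% of cells in PBS 1, 2 and 3 held at least 1 Blmh UMI, against 21.2, 21.0 and 20.9% after bleomycin. The unthinned groups overlapped, and PBS 2, at the lowest depth, had the lowest share. With every cell thinned to 1000 UMIs, the shares were 4.50, 3.93 and 3.52% in PBS and 2.62, 2.87 and 2.66% after bleomycin. At this depth the groups no longer overlapped. The means were 3.98% ± 0.497 and 2.72% ± 0.134 (SD, n = 3 each; two-sided exact permutation p = 0.1, adjusted p = 0.167). The SARATg shares were 3.84% with PBS and 3.43% with bleomycin. Between 186 and 667 cells per skin library were below 1000 UMIs and were left out, among them 344 of the 781 cells of PBS 2.

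Single cells were then assigned to types by fixed marker genes, and type names below stand for these gates. A gate needed 3 of 10 markers and a lead of 2 over any other type, which placed 57.9 to 83.9% of skin cells and 84.0 to 92.9% of kidney cells. Blmh was not among the markers. Skin cells with markers of several types made up 9.04 to 21.3% of a library and held Blmh at 32.2 CPM ± 2.98 (SD, n = 8 libraries), and those with too few markers made up 3.58 to 32.8% and held it at 34.2 ± 14.7. The fibroblast gate (Col1a1, Dcn, Pdgfra and others) held 3179 skin cells, 59.4% of them with a Pdgfrb UMI, and covers cells that the study describes as noncanonical pericytes. The mural gate (Rgs5, Kcnj8, Abcc9 and others) held 146 skin cells, 85.6% with Pdgfrb. Gates that lay close to another type were dendritic cells in skin, with 43.4% of cells at the minimum number of markers or the minimum lead, and the distal convoluted tubule in kidney, with 46.4%.

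In the fibroblast gate, Blmh was again lower in every SARAWT bleomycin library than in every SARAWT PBS library. PBS 1, 2 and 3 were at 68.4, 54.3 and 49.5 CPM (629, 42 and 267 UMIs). Bleomycin 1, 2 and 3 were at 49.0, 40.7 and 41.6 CPM (131, 66 and 103 UMIs). The highest bleomycin value lay just under the lowest PBS value, and with 1239 UMIs per cell in PBS 2 and 1190 in bleomycin 2 against 10865 in PBS 1, depths of gated cells were uneven. The mean difference, 57.4 ± 9.84 against 43.8 ± 4.53 CPM (SD, n = 3 each), had an exact permutation p of 0.1, and edgeR gave a log2 fold change of -0.37 (SE 0.19, adjusted p = 0.269). In this fit 136 of 10743 genes passed (1.27%). DESeq2 called 820 and the replicate block 846, in both cases without Blmh. Leaving out the cells with most UMIs reduced the fold change to -0.12 (adjusted p = 0.855) and the genes called to 2, and leaving out cells with shared barcodes reduced it to -0.20 (adjusted p = 0.854) and the genes called to 0. With any single library left out 0 to 87 genes passed. Without PBS 1 it was -0.26, without PBS 3 it was -0.41, and without both it was -0.28. The SARATg pair went the other way, with 41.4 CPM in PBS (765 UMIs) and 54.1 CPM in bleomycin (858 UMIs), and the 2 Poisson intervals, 38.5 to 44.4 and 50.5 to 57.8, did not overlap. That compares 2 libraries only.

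Dendritic cells showed the same order. PBS libraries 1 to 3 were at 31.4, 35.2 and 33.0 CPM (96, 7 and 193 UMIs), and bleomycin libraries 1 to 3 at 21.1, 25.4 and 26.1 CPM (66, 57 and 162 UMIs). The groups did not overlap, although PBS 2 rested on 7 UMIs. The means were 33.2 ± 1.90 and 24.2 ± 2.69 CPM (SD, n = 3 each; exact permutation p = 0.1), and SARATg was at 33.8 CPM with PBS and 26.1 with bleomycin. The edgeR log2 fold change was -0.38 (SE 0.23, adjusted p = 0.674), in a fit where 0 of 9226 genes passed (0.0%), 815 were under an unadjusted p of 0.05, DESeq2 called 49 and the block 51. Without PBS 1 it was -0.43 (adjusted p = 0.823), without PBS 3 it was -0.34 (0.705) and without both it was -0.44 (0.791).

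Macrophages or monocytes, the largest gate in skin with 8078 cells, differed less. The PBS libraries were at 37.5, 27.7 and 27.7 CPM and the bleomycin libraries at 24.9, 24.6 and 28.5 CPM, on 25 to 580 UMIs each. The groups overlapped, with means of 31.0 ± 5.67 and 26.0 ± 2.17 (SD, n = 3 each; exact permutation p = 0.3), and SARATg was at 31.4 and 29.0 CPM. The edgeR log2 fold change was -0.18 (SE 0.19, adjusted p = 0.799), where 1 of 11607 genes passed (0.00862%), with 177 called by DESeq2, 22 under the block and 487 of 12071 without PBS 3, none of which was Blmh. Without PBS 1 and 3 together the value turned to 0.011 (adjusted p = 0.995).

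Keratinocytes, the cells in which filaggrin is broken down, varied widely between libraries of one group. PBS 1, 2 and 3 were at 81.6, 38.2 and 76.4 CPM (141, 5 and 447 UMIs), and bleomycin 1, 2 and 3 at 33.2, 81.9 and 33.8 CPM (7, 38 and 25 UMIs). Both groups thus held high and low libraries, and the means of 65.4 ± 23.7 and 49.6 ± 27.9 CPM (SD, n = 3 each) had an exact permutation p of 0.6. SARATg stood higher than any of these, at 87.3 CPM in PBS (429 UMIs) and 122 CPM in bleomycin (447 UMIs). The edgeR log2 fold change was -0.44 (SE 0.38, adjusted p = 0.761), where 0 of 6393 genes passed (0.0%), 637 were under an unadjusted p of 0.05, DESeq2 called 37 and the block 42. The value moved to -0.96 without bleomycin 2 (adjusted p = 0.599) and to -0.15 without bleomycin 3 (adjusted p = 0.932). Without PBS 1 and 3, which left the 5 UMIs of PBS 2 as the only control, the sign turned to 0.48 (adjusted p = 0.905). In basal keratinocytes alone, PBS 2 was out for having under 10 cells. This left as controls only PBS 1 and PBS 3, whose SARA gene signal goes against their label. The edgeR log2 fold change was -0.54 (SE 0.39, adjusted p = 0.682), and 5 of 6733 genes passed (0.0743%), with 53 by DESeq2 and 121 under the block. Here too it moved, to -0.91 without bleomycin 2 (adjusted p = 0.572), -0.93 under the block (0.527) and -0.23 without bleomycin 3 (0.923).

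A further 3 types could be fitted, each without PBS 2. Their only controls were thus PBS 1 and PBS 3, the libraries whose SARA gene signal goes against the SARAWT label. In T or innate lymphoid cells the log2 fold change was 0.09 (SE 0.23, adjusted p = 0.966), where 0 of 9385 genes passed (0.0%), 646 were under an unadjusted p of 0.05, DESeq2 called 56 and the block 238. In Schwann cells it was -0.23 (SE 0.32, adjusted p = 0.700), where 211 of 5921 genes passed (3.56%) and 534 did under the block. In mast cells it was -0.04 (SE 0.42, adjusted p = 0.9996), where 0 of 2913 genes passed (0.0%), 60 were under an unadjusted p of 0.05, DESeq2 called 1 and the block 25. Endothelial cells, mural cells, muscle cells and neutrophils had too few Blmh UMIs to pass the count filter. Their SARAWT mean CPM were higher after bleomycin, on few UMIs. Endothelial cells went from 45.3 ± 14.9 to 68.2 ± 59.0 CPM (SD, n = 3 each). Bleomycin 1 was at 133 on 9 UMIs there and bleomycin 2 at 17.3 on 1. Mural cells went from 65.1 ± 13.8 (n = 3) to 73.3 ± 10.8 (n = 2). Muscle cells went from 21.7 ± 4.07 to 27.5 ± 8.18 and neutrophils from 2.71 ± 4.70 to 9.19 ± 11.7 (n = 3 each). Without the filter edgeR gave log2 fold changes of 0.49 in endothelial and 0.63 in muscle cells. It gave -0.05 in mural cells and -0.48 in neutrophils, against the direction of their means. None passed the threshold. Across the 9 skin fits where Blmh passed the filter it was not called under edgeR, DESeq2 or the block.

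**Figure D2:**
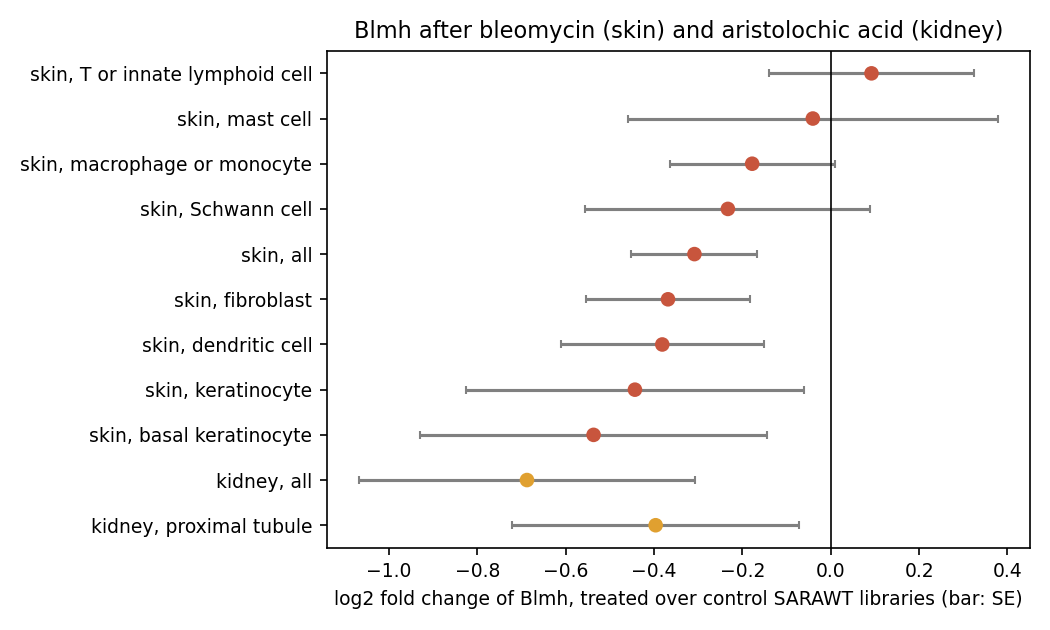
log2 fold change of Blmh (horizontal axis) between treated and control SARAWT libraries in each edgeR fit where Blmh passed the count filter (vertical axis). Red is bleomycin in skin, yellow is aristolochic acid in kidney, and bars are standard errors. All values but that of T or innate lymphoid cells lie below 0, from -0.69 in all kidney cells to -0.04 in mast cells, and none passed the threshold.

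Whether the bleomycin difference depended on genotype was tested as an interaction in the 8 skin libraries, with the gene list as a covariate. The 1 SARATg library per treatment was assumed to vary like the SARAWT libraries. The interaction was 0.24 on the log2 scale over all cells (SE 0.26, adjusted p = 1) and 0.36 in fibroblasts (SE 0.39, adjusted p = 0.839) in edgeR's test. With these standard errors the libraries do not resolve whether the genotypes differed. In keratinocytes it was 0.90 (SE 0.64, edgeR adjusted p = 0.994) and in dendritic cells 0.10 (SE 0.42, adjusted p = 1).

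The 2 gene lists used in counting split the skin libraries, and values within a list are given for comparison. With the longer list Blmh was at 43.4 CPM in PBS and 30.6 CPM in bleomycin (2 against 2 SARAWT libraries), and with the shorter list it was 40.4 against 31.8 CPM (1 against 1). In fibroblasts these pairs were 61.4 and 44.8 CPM, and 49.5 and 41.6 CPM. In dendritic cells they were 33.3 and 23.3 CPM, and 33.0 and 26.1 CPM. The difference had the same direction within both lists in these types, but in macrophages it was 32.6 against 24.7 CPM with the longer list and 27.7 against 28.5 with the shorter.

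The mix of cell types also differed between treatments. Fibroblasts made up 16.8, 20.6 and 8.09% of cells in PBS 1, 2 and 3 and 7.05, 9.41 and 2.21% after bleomycin, and macrophages 32.0, 18.6 and 19.9% against 39.2, 35.6 and 25.1%. Keratinocytes made up 3.24, 2.30 and 7.12% in PBS and 1.35, 2.12 and 0.977% after bleomycin. Neutrophils, which had the lowest mean Blmh level, were 19.5% of bleomycin 3. If every type is set to its mean level over the 8 libraries, only each library's own mix of UMIs is kept. The expected level is then 38.8 to 39.3 CPM in SARAWT PBS and 33.0 to 34.7 CPM in SARAWT bleomycin libraries. For SARATg it is 40.9 CPM with PBS and 37.8 with bleomycin. Observed over expected was 0.993 to 1.23 in SARAWT PBS and 0.880 to 0.964 in SARAWT bleomycin, without overlap. The SARATg pair went the other way, at 1.01 with PBS and 1.11 with bleomycin. How much of the difference came from the mix was not tested.

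Across skin cell types, Blmh was highest in differentiated keratinocytes and mast cells and had its lowest mean in neutrophils. Mean levels over libraries with at least 10 cells were 128.7 CPM ± 39.8 (SD, n = 5) in differentiated keratinocytes, 87.9 ± 31.9 (n = 7) in mast cells and 69.3 ± 31.6 (n = 8) in keratinocytes as a whole. Mural cells (63.5 ± 13.0, n = 7), natural killer cells (58.8 ± 8.73, n = 6), endothelial cells (58.2 ± 37.8, n = 8), Schwann cells (52.7 ± 7.54, n = 7) and fibroblasts (49.9 ± 9.32, n = 8) followed. T or innate lymphoid cells were at 43.8 CPM ± 4.30 (n = 7), dendritic cells at 29.0 ± 5.00 (n = 8), macrophages or monocytes at 28.9 ± 4.12 (n = 8), muscle cells at 24.7 ± 8.13 (n = 8) and neutrophils at 6.88 ± 9.16 (n = 8).

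**Figure D3:**
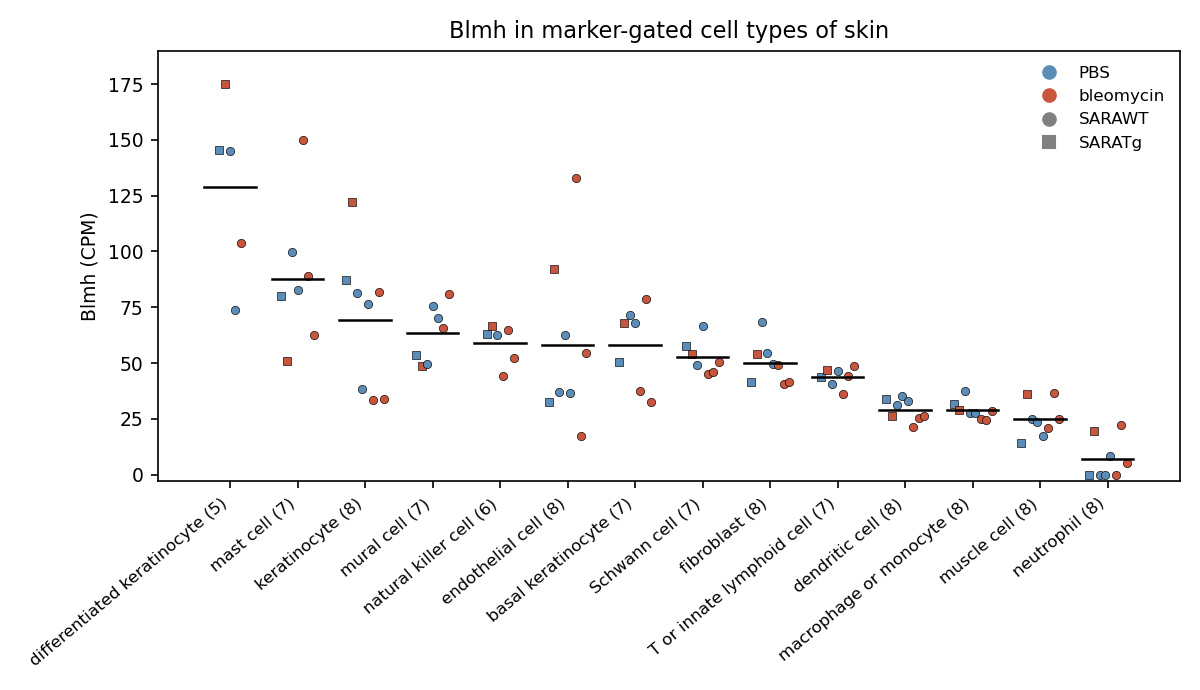
Blmh level in CPM (vertical axis) in each marker-gated skin cell type (horizontal axis, number of libraries with at least 10 cells in brackets). Each point is a library (blue, PBS; red, bleomycin; circles, SARAWT; squares, SARATg) and lines are means. Differentiated keratinocytes average 128.7 CPM, and neutrophils 6.88 CPM.

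Each type was compared with the other gated cells of the same library by a two-sided exact sign-flip permutation test on log2 ratios after adding 1 CPM to both levels, adjusted over 12 types. Mast cells, which store proteases and histamine, stood 2.16-fold above the other cells (higher in 7 of 7 libraries, adjusted exact p = 0.0268). Keratinocytes stood 1.71-fold above (7 of 8, 0.0268), natural killer cells 1.58-fold (6 of 6, 0.0375), mural cells 1.55-fold (6 of 7, 0.0375), fibroblasts 1.37-fold (7 of 8, 0.0268) and Schwann cells 1.36-fold (6 of 7, 0.0375). Dendritic cells stood at 0.723 of the other cells (lower in 8 of 8, 0.0268), macrophages at 0.641 (8 of 8, 0.0268) and muscle cells at 0.617 (7 of 8, 0.0268). Neutrophils were at a mean of 6.88 CPM against 39.9 in the other cells (lower in 8 of 8, 0.0268), and since 4 of their 8 libraries were at 0 the size of the ratio depends on the CPM added, with a log2 ratio of -3.49 after adding 1 CPM and -1.72 after adding 10 CPM. Endothelial cells (adjusted exact p = 0.383) and T or innate lymphoid cells (0.188) did not differ beyond the spread between libraries. The design leaves little room, since without any one of SARAWT PBS 3, SARAWT bleomycin 3 or SARATg bleomycin 1 the smallest p rises and all 10 calls are lost (adjusted exact p = 0.0536 or 0.0750), with every direction kept. Without SARATg PBS 1 or SARAWT bleomycin 2 each 6 of the calls are lost, without bleomycin 1 those of Schwann and natural killer cells, and without PBS 2 that of mural cells, at the same adjusted p-values. Mural and Schwann cells also lost the call under stricter gates, at log2 ratios of 0.45 and 0.14, and mural cells also under the stricter cell filter (adjusted exact p = 0.150) and with shared barcodes left out (0.0750).

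Neighbours in this order were mostly not separable. Of the 11 neighbouring pairs in skin none passed after adjustment. T or innate lymphoid cells were 1.55-fold above dendritic cells in 7 of 7 libraries (exact p = 0.0156, adjusted p = 0.0859), and muscle cells, at 24.7 CPM, were above neutrophils, at 6.88 CPM, in 8 of 8 (exact p = 0.00781, adjusted p = 0.0859), without a fold since neutrophils were at 0 in 4 of these libraries. Dendritic cells and macrophages were at a ratio of 0.998 (exact p = 0.961).

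Neutrophils had the lowest mean share of cells with a Blmh UMI, but their libraries were uneven. At 1000 UMIs per cell, a Blmh UMI was found in 0.459% of skin neutrophils, against 2.76% of macrophages, 4.59% of fibroblasts, 5.82% of keratinocytes and 8.08% of mast cells (means over libraries). Median depths before thinning were 2231 to 3005 UMIs for neutrophils, 5481 to 13408 for macrophages and 1107 to 1809 for mast cells. Thinning left out shallow mast cells, 113 of 295 in SARAWT PBS 1, and the part of depth in these shares was not tested. RNA from outside the cells was not estimated, so its part in the neutrophil counts is not known. In all, 69 Blmh UMIs were counted in 2240 skin neutrophils, 38 of them in SARATg bleomycin 1. That library was at 19.4 CPM (exact Poisson 95% interval 13.7 to 26.6), within the range of muscle cells over libraries, 14.0 to 36.6 CPM. SARAWT PBS 3 was at 8.14 CPM and bleomycin 3 at 5.25, and bleomycin 2 was at 22.3 on 1 UMI. No UMI was found in those of SARAWT PBS 1, PBS 2, bleomycin 1 and SARATg PBS 1. For the 90 neutrophils of bleomycin 1 the exact Poisson 95% interval of a count of 0 reaches 14.2 CPM.

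Within keratinocytes, differentiated cells had a higher CPM than basal cells in every library where both sub-gates had at least 10 cells. Differentiated cells (Krt1, Krt10, Krtdap, Lor and others) were at 145 CPM in SARAWT PBS 1, 73.9 in PBS 3, 104 in bleomycin 2, 145.5 in SARATg PBS and 175 in SARATg bleomycin. Basal cells (Krt5, Krt14, Krt15 and others) of the same libraries were at 71.6, 68.0, 78.8, 50.5 and 68.0 CPM. The ratio was narrowest in PBS 3 and widest in the SARATg libraries. The mean ratio was 1.84-fold, higher in 5 of 5 libraries, with an exact sign-flip p of 0.0625, the smallest that 5 libraries allow. The 145 CPM of PBS 1 came from 36 UMIs in 7 of 26 cells. Shares of cells with a Blmh UMI at 1000 UMIs differed less in SARAWT. They were 8.52% in differentiated and 6.15% in basal cells of PBS 1, and 6.39 and 6.18% in PBS 3. In bleomycin 2 differentiated cells were at 5.16%, and basal cells of the bleomycin libraries at 2.02 to 5.16%. SARATg was at 12.3 and 4.71% with PBS and 12.6 and 5.37% with bleomycin.

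In kidney, Blmh had its highest means in mural cells, few as they were, and in the straight S3 part of the proximal tubule. The proximal tubule reabsorbs filtered solutes and peptides and is the part of the kidney that aristolochic acid injures. Mean levels were 103.9 CPM ± 18.3 (SD, n = 7) in S3 cells, 78.0 ± 22.2 (n = 8) in endothelial cells, 69.0 ± 16.96 (n = 9) in the whole proximal tubule and 60.0 ± 12.0 (n = 9) in its convoluted part. Natural killer cells were at 52.1 ± 23.3, T or innate lymphoid cells at 51.9 ± 7.59, distal convoluted tubule at 43.2 ± 11.6, macrophages or monocytes at 39.2 ± 6.15, B cells at 38.8 ± 9.09 and intercalated cells at 38.8 ± 11.1 (n = 9 each). Collecting duct principal cells were at 50.8 ± 17.5 (n = 7). Thick ascending limb at 35.9 ± 17.1, dendritic cells at 31.9 ± 7.56 and neutrophils at 20.8 ± 11.8 (n = 9 each) closed the order.

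**Figure D4:**
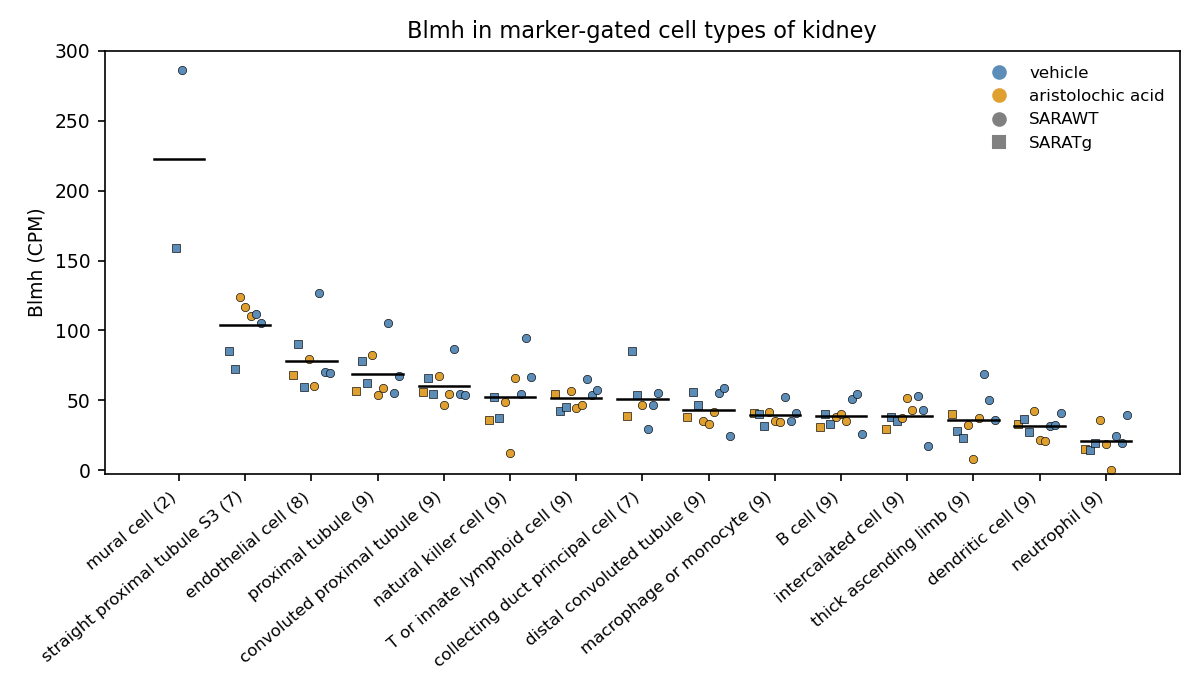
Blmh level in CPM (vertical axis) in each marker-gated kidney cell type (horizontal axis, number of libraries with at least 10 cells in brackets). Each point is a library (blue, vehicle; yellow, aristolochic acid; circles, SARAWT; squares, SARATg) and lines are means. S3 cells average 103.9 CPM and neutrophils 20.8 CPM, and mural cells rest on 2 libraries.

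Against the other gated kidney cells, proximal tubule stood 1.46-fold above (9 of 9 libraries, adjusted exact p = 0.0102 over 13 types) and endothelial cells 1.31-fold above (8 of 8, 0.0145). Below stood distal convoluted tubule at 0.747 (0.0169), B cells at 0.675 (0.0145), intercalated cells at 0.665 (0.0169), macrophages at 0.662 (0.0102), thick ascending limb at 0.569 (0.0102), dendritic cells at 0.558 (0.0102) and neutrophils (0.0102), each lower in 8 or 9 of 9 libraries by the same exact test. Neutrophils averaged 20.8 CPM against 58.4 in the other cells, and with aristolochic acid 3 at 0 on 17 cells the ratio depends on the CPM added, at -1.82 on the log2 scale with 1 CPM, -1.23 with 10 CPM and -1.36 without that library. With any single library left out all 9 calls held. The call of distal convoluted tubule was lost under the stricter gate (adjusted exact p = 0.488), with mitochondrial UMIs out of the total (0.0621) and under the stricter cell filter (0.0635), and that of intercalated cells was lost under the latter 2 (0.0621 and 0.226). T or innate lymphoid, natural killer and principal cells did not pass (adjusted exact p = 0.427 to 0.436). Mural cells numbered 57 in all, and only 2 libraries had 10 or more, at 286 CPM (SARAWT vehicle 2, 16 UMIs) and 159 CPM (SARATg vehicle 2, 12 UMIs). In the other 6 libraries with any mural cell the level was 143 to 491 CPM on 2 to 11 UMIs. With 2 libraries the exact p cannot go below 0.5. Among the 11 tested neighbouring pairs only dendritic cells over neutrophils passed, at 31.9 against 20.8 CPM and higher in 9 of 9 libraries (exact adjusted p = 0.0430).

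S3 cells (Slc7a13, Slc22a30, Cyp7b1 and others) exceeded convoluted cells (Slc5a2, Slc5a12, Slc6a19 and others) in 7 of 7 libraries. S3 cells were at 112 and 105.5 CPM in SARAWT vehicle 1 and 3, at 124, 117 and 110 in aristolochic acid 1, 2 and 3, and at 85.2 and 72.8 in SARATg vehicle 1 and 2. The convoluted cells of these libraries were at 87.0, 54.1, 67.4, 46.5, 54.5, 65.7 and 54.5 CPM. The highest convoluted value, in SARAWT vehicle 1, exceeded the 2 lowest S3 values, but within each library S3 was higher. The mean ratio was 1.69-fold (exact sign-flip p = 0.0156, the smallest that 7 libraries allow).

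**Figure D5:**
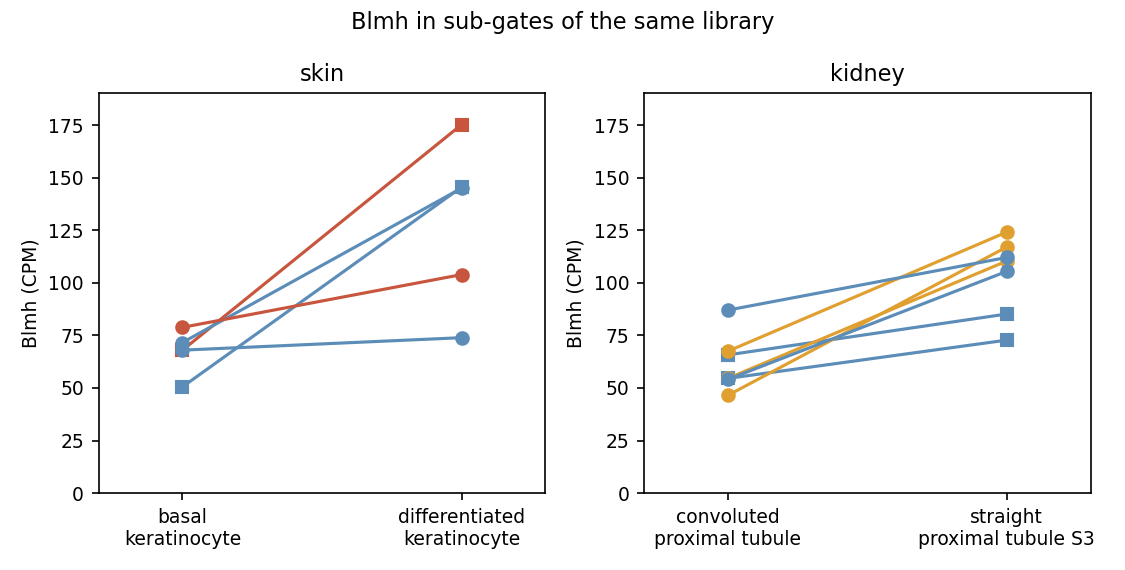
Blmh level in CPM (vertical axes) in paired sub-gates of the same library (horizontal axes), basal and differentiated keratinocytes in skin on the left and convoluted and S3 proximal tubule in kidney on the right. Each line is a library (blue, PBS or vehicle; red, bleomycin; yellow, aristolochic acid; circles, SARAWT; squares, SARATg). All 5 skin lines and all 7 kidney lines slope upward from left to right.

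Aristolochic acid is a plant toxin taken up by the proximal tubule, and no difference in kidney Blmh after it passed the threshold. Over all kept cells the SARAWT vehicle libraries were at 101.5, 53.01 and 52.8 CPM and the aristolochic acid libraries at 52.3, 47.7 and 44.1 CPM. SARATg was at 66.9 and 51.8 CPM with vehicle and 49.0 with aristolochic acid. Vehicle 1 stood far above the others, and it was also the deepest kidney library, with a median of 8931 UMIs per cell against 8232 in vehicle 2. It held the most proximal tubule, 80.6% of its cells against 69.9 and 15.4% in vehicle 2 and 3 and 7.72 to 31.3% after aristolochic acid. With every type at its mean kidney level, the expected level was 66.9 CPM in vehicle 1, 63.3 in vehicle 2 and 51.8 in vehicle 3. What set vehicle 1 apart was not tested. The edgeR log2 fold change was -0.69 (SE 0.38, adjusted p = 0.483), where 0 of 16055 genes passed (0.0%), 1213 were under an unadjusted p of 0.05 and DESeq2 called 80. Without vehicle 1 it was -0.15 (adjusted p = 0.857), and without aristolochic acid 1, whose Zfyve9 goes against its label, it was -0.75. Without vehicle 3, the vehicle library with the least proximal tubule, it was -0.87 (adjusted p = 0.137) and 3629 of 16447 genes passed, against 0 without any other single library.

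In the proximal tubule alone the vehicle libraries were at 105, 55.0 and 67.1 CPM and the aristolochic acid libraries at 82.6, 54.1 and 58.9 CPM, on 369 to 12704 UMIs each. The groups overlapped. The SARATg libraries were at 78.4 and 62.5 CPM with vehicle and 56.8 with aristolochic acid. The log2 fold change was -0.40 (SE 0.33, adjusted p = 0.611 in edgeR), where 0 of 12463 genes passed (0.0%), 1004 were under an unadjusted p of 0.05 and DESeq2 called 54. Without vehicle 1 it was -0.03, and without aristolochic acid 1 it was -0.60 (adjusted p = 0.749). Without vehicle 3 it was -0.48 (adjusted p = 0.423) and 299 of 12634 genes passed, and without vehicle 2 it was -0.63 (adjusted p = 0.645) with 0 passed.

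Over all kept cells, Blmh was higher in kidney than in skin. Over all libraries the means were 57.7 CPM ± 17.6 (SD, n = 9) and 37.9 ± 6.41 (n = 8). Ratios and tests in this paragraph used means of log2 levels after adding 1 CPM. The ratio was 1.48-fold (two-sided exact permutation p = 0.000247, adjusted p = 0.000987 over 4 comparisons). Among SARAWT libraries given vehicle (kidney) or PBS (skin) the means were 69.1 ± 28.1 and 42.4 ± 5.19 CPM (n = 3 each, exact p = 0.1), without overlap. Without kidney vehicle 1, at 101.5 CPM, the log2 ratio of skin over kidney went from -0.63 to -0.32 (exact p = 0.2). Within macrophages or monocytes, a type found in both tissues, kidney was at 39.2 ± 6.15 and skin at 28.9 ± 4.12 CPM, a ratio of 1.34-fold (exact permutation p = 0.000740, adjusted p = 0.00148). Both sets of all libraries overlapped between the tissues. Macrophages of these vehicle and PBS SARAWT libraries were at 42.9 ± 8.75 CPM in kidney and 31.0 ± 5.67 in skin (n = 3 each), which overlapped (exact permutation p = 0.2). Other shared types were not tested between tissues. Natural killer cells (58.8 CPM in skin, 52.1 in kidney) and fibroblasts (49.9 and 32.1, with 1 kidney library) had higher means in skin. Dendritic cells (29.0 and 31.9), T or innate lymphoid cells (43.8 and 51.9), endothelial cells (58.2 and 78.0) and neutrophils (6.88 and 20.8) had higher means in kidney. The part of the cell mix in the difference over all cells was not tested. The tissues were separate experiments with different Cell Ranger versions, so tissue and experiment cannot be told apart.

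Among the 5 genes whose mean level across 26 gated types of both tissues followed Blmh most closely were Sufu, an inhibitor of hedgehog signalling (Spearman 0.814), Iars2, the mitochondrial isoleucine tRNA synthetase (0.746), Tnks1bp1, a tankyrase-binding protein (0.742), and Deaf1, a transcription factor (0.739, tied with Fam126b). They were taken from 9541 genes, over which the median correlation was 0.113 and the 99th percentile 0.607. For Sufu the level ran from 0.758 CPM in skin neutrophils to 20.6 in skin mural cells and 29.1 in convoluted proximal tubule. These 26 points share libraries and tissues and carry no test.

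The other genes around the enzyme's known work were followed as lists in the same skin fit over all cells, where 0 of 15335 genes passed and 18.3% of them were under an unadjusted p of 0.05. Of the 17 cytosolic peptidases, a mix of amino-, di- and endopeptidases that share the compartment of Blmh, none passed in either direction, 2 were under an unadjusted p of 0.05, and their median log2 fold change was 0.21 against 0.01 over all genes. The most abundant were Metap2 (140 CPM over skin libraries), Cndp2 (96.9), Npepps (81.7) and Tpp2 (76.2). Of the 10 papain-family lysosomal peptidases, relatives of Blmh, none passed, 6 were under an unadjusted p of 0.05, and the median was 0.40. Macrophages, which are rich in such peptidases, made up 18.6 to 32.0% of cells with PBS and 25.1 to 39.2% after bleomycin. The part of their share in this median was not tested. Within the macrophage gate the list median was 0.55, with 3 of 9 genes under an unadjusted p of 0.05 against 9.29% of all genes. It was 0.59 in keratinocytes, 0.12 in fibroblasts and -0.05 in T or innate lymphoid cells. Ctsb (1208 CPM), Ctss (993), Ctsl (510) and Ctsz (454) led by level.

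Of the 18 genes that repair the kind of DNA break bleomycin makes, led by Polb (52.0 CPM), Parp1 (34.1), Apex1 (23.3) and Rad50 (22.1), none passed, none was under an unadjusted p of 0.05, and the median was 0.03. Of the 13 genes of filaggrin processing only 6 could be tested, with Ctsd (317 CPM), Hal (149), Capn1 (34.7) and Tgm1 (4.67) leading. None passed and 1 was under an unadjusted p of 0.05 (median -0.62). The share of keratinocytes was also lower in each SARAWT bleomycin library, at 0.977 to 2.12% against 2.30 to 7.12% with PBS. Its part in this median was not tested. Within keratinocytes the list median had the other sign, 0.48 over 5 tested genes, and in basal keratinocytes it was 0.43 over 3. None passed there either. Of the 4 hydrolases of homocysteine thiolactone and related lactones 3 could be tested, with Pon2 at 41.6, Pon3 at 11.9 and Bphl at 10.3 CPM. None passed and 1 was under an unadjusted p of 0.05 (median 0.51). The p53 targets, which answer DNA damage, had a median of 0.42 over 10 genes. None was past the threshold and 1 was under an unadjusted p of 0.05. Cdkn1a (690 CPM), Mdm2 (194), Bax (172) and Gdf15 (76.5) led. The part of the cell mix in the hydrolase and p53 medians was not tested.

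Across the fits within cell types, members of these lists passed 3 times, all of them p53 targets and all higher after bleomycin. These were 1 of the 10 p53 targets tested in fibroblasts, where 1.27% of all genes passed, and 2 of the 6 tested in Schwann cells, where 3.56% did. The only controls of the Schwann cell fit were PBS 1 and PBS 3, whose SARA gene signal goes against their label. It could therefore not be run without both. Phlda3, a p53-induced repressor of Akt, went from 77.2 to 250 CPM in fibroblasts (log2 fold change 1.67, SE 0.27, edgeR adjusted p = 0.0457) and from 64.0 to 181 CPM in Schwann cells (1.65, SE 0.29, adjusted p = 0.0225). Bax, which promotes apoptosis, went from 92.3 to 190 CPM in Schwann cells (1.12, SE 0.26, adjusted p = 0.0484). The direction held in every alternative, but the calls often did not. For Phlda3 in fibroblasts 9 of 17 alternatives lost the call, among them leaving out cells with shared barcodes (adjusted p = 0.155) and any single library other than PBS 3 (up to 0.159, without bleomycin 1). In Schwann cells 5 of 15 alternatives lost it for Phlda3 (up to 0.184, with shared barcodes left out, and 0.114 and 0.108 without PBS 1 or 3) and 9 of 15 for Bax (up to 0.276). In the same fits Blmh was at -0.37 in fibroblasts and -0.23 in Schwann cells on the log2 scale, with neither past the threshold.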

How the data were processed

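The study sorted cells, made 10x Genomics 3′ v3 libraries and, per the submitters' notes, used mm10, Cell Ranger 3.0.2 and Seurat 2.3.4. The matrix headers name Cell Ranger 4.0.0 (4 skin libraries, 32286 genes), 3.1.0 (the other skin libraries, 31053 genes) and 3.0.2 (kidney). The deposited files hold raw UMI counts per gene and cell. Genes were joined by Ensembl ID (30406 shared).

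Kept cells had 200 or more detected genes, with mitochondrial UMIs up to 20% in skin and 50% in kidney. Cells were gated by marker genes, and cells with markers of several types, possible doublets, were left out of the types, with no doublet caller. RNA from outside the cells was neither estimated nor subtracted. CPM is Blmh UMIs per 1000000 UMIs of shared genes. Shares at 1000 UMIs were computed exactly per cell. Sums per library and type went through the quasi-likelihood test of edgeR 4.0.16 (TMM, filterByExpr) in R 4.3.3, with DESeq2 1.42.0 as the alternative, after both were tested on simulated data. Values per library were tested with exact permutation over libraries.

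Same-numbered skin SARAWT libraries deviated together (r = 0.256, 0.127 and 0.526 over 15335 genes), but they also share a gene list, and differently numbered pairs of one gene list were at r = 0.186 and 0.211, so number and gene list cannot be told apart and the blocked fit is given too. Blmh, the gene lists, markers and tests were chosen with earlier results of these data known. Genes named were Blmh, the 5 most correlated genes (1 of them is not reported here), and of each list those past the threshold and the 4 highest.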

Additional observations from a re-analysis of the deposited data

How the results depend on the processing

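Of 671 alternatives to 46 results, 581 kept the direction and the side of the threshold, and Blmh passed no treatment test under any. The lower Blmh after bleomycin ranged from -0.37 to -0.15 on the log2 scale over 15 alternatives in all skin cells and from -0.48 to -0.12 over 17 in fibroblasts. In mast cells the log2 fold change became 0.0077 with DESeq2 and 0.020 under the stricter cell filter, and -0.33 to 0.21 with 1 library left out. In Schwann cells it became 0.014 under the stricter gate and -0.43 to 0.17 with 1 library left out, and in T or innate lymphoid cells -0.031 to 0.22. In keratinocytes it was -0.96 to -0.15, and in basal keratinocytes -0.91 to -0.23. With SARAWT PBS 1 and 3 both left out, chosen after seeing the data, it was 0.48 in keratinocytes and 0.011 in macrophages. Alternatives for Phlda3 and Bax were also added after seeing the data. With 1 library left out, edgeR called 18 to 274 genes in Schwann cells, 2 to 123 in basal keratinocytes, 0 to 30 in dendritic cells and 0 to 18 in T or innate lymphoid cells.

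Under the replicate block, the pairing turned mast cells to 0.014 and changed no other call, with -0.31 in all skin cells, -0.36 in fibroblasts (adjusted p = 0.201), -0.41 in dendritic cells, -0.93 in basal keratinocytes, -0.58 in keratinocytes and -0.17 in macrophages. Paired over libraries, the CPM and share differences had an exact p of 0.25. Same-numbered kidney libraries did not all deviate together (r = -0.39, 0.37 and 0.32 over all cells). Differently numbered pairs ran from -0.64 to 0.54. With the block Blmh was at -0.57 in all kidney cells and -0.34 in proximal tubule, with 0 genes called as before. Without thinning, the share difference in skin was -0.59 percentage points.

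For levels of skin types against other gated cells, leaving out 1 library gave log2 ratios of 0.41 to 0.53 in Schwann, 0.12 to 0.31 in T or innate lymphoid (called without SARAWT PBS 1), -0.51 to -0.42 in dendritic, 0.40 to 0.53 in fibroblast, 0.65 to 0.89 in keratinocyte, -0.69 to -0.61 in macrophage, 0.91 to 1.26 in mast, 0.52 to 0.75 in mural, -0.82 to -0.57 in muscle, 0.59 to 0.68 in natural killer cells and -3.92 to -3.18 in neutrophils. Over the other settings skin neutrophils ran from -3.52 to -1.72 (10 CPM added), with -2.25 under the looser gate, and muscle from -1.33 (stricter gate) to -0.53 (10 CPM added). Kidney neutrophils ran from -2.63 (stricter gate) to -1.23 (10 CPM added). Under the stricter gate the Schwann ratio fell to 0.14 (adjusted p = 0.688) and the mural ratio to 0.45, and mural cells lost the call at 0.49 under the stricter cell filter and 0.51 without shared barcodes. In kidney the stricter gate gave 0.047 for principal cells (reversed) and -0.22 for distal convoluted tubule, which was at -0.36 with mitochondrial UMIs out of the total and -0.38 under the stricter cell filter. Intercalated cells were at -0.38 and -0.30 under the latter 2. Apart from fewer libraries or cells, the cause was not tested. Few UMIs in rare types limit what depth can show.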
